A study of Mus musculus with 33 samples.

Results

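The coinhibitory receptors described here were 8 genes, Ctla4, Pdcd1 (PD-1), Tigit, Lag3, Havcr2 (TIM-3), Cd160, Btla and Cd96, of 31054 features counted in bulk RNA-Seq libraries. They were chosen by symbol through their mouse Ensembl identifiers. All 8 were found, and all 8 passed the filter of at least 1 CPM, a count scaled to the total of its library, in at least 1 library, as did 25347 features in total. The libraries numbered 33, with 3 for each of 11 sorted cell subsets.

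All mice were DEREG mice on the C57BL/6 background, which carry a diphtheria toxin receptor and EGFP under the Foxp3 promoter. Tolerant mice received 4000 islet equivalents of porcine neonatal islet cell clusters (NICC) under the renal capsule, 500 µg of MR-1, an antibody against CD154, on 4 days from day 0 to day 6, and 500 µg of CTLA4-Fc once at day 0. Their cells were sorted at day 100. Naive mice had neither transplant nor treatment. The 7 Treg subsets were CD4+GFP+ cells, namely SP/naive and DLN/naive Tregs of naive mice, SP/CD127-/lo, SP/CD127hi, DLN/CD127-/lo and DLN/CD127hi Tregs of tolerant mice, and graft Tregs of tolerant mice, where SP is the spleen and DLN the lymph node draining the kidney with the graft. The 4 Foxp3- subsets came from the spleen, namely CD4+GFP- T cells and CD45+CD4- cells of naive and of tolerant mice. The CD45+CD4- cells are all other leukocytes left after depletion of CD4+ cells. CTLA4-Fc carries the extracellular domain of one of the receptors measured here, but it was given as a protein.

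Coinhibitory receptors are surface proteins of lymphocytes that lower activation when they bind their ligands. CTLA4 competes with CD28 for CD80 and CD86, PD-1 binds PD-L1 and PD-L2, TIGIT and CD96 compete with CD226 for the poliovirus receptor family, and BTLA and CD160 share the ligand HVEM. Tregs are known for constitutive CTLA4, and TIGIT marks activated Tregs, whereas BTLA is prominent on B cells and resting T cells.

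The NextSeq 500 gave the libraries of spleen and graft, with 2550698 to 4615283 counts on genes. The MiSeq gave those of the DLN, with 844039 to 1935323, and a DLN effect cannot be told apart from the machine. The limit that a count of 0 allows, 3 counts, was worth 0.650 to 1.18 CPM in spleen and graft and 1.55 to 3.55 CPM in the DLN, for counting error only. Foxp3 and B cell markers fitted the labels. Mean Foxp3 was 206 to 600.1 CPM in the Treg subsets and 0.501 to 2.97 CPM in the others, EGFP was at 0 in both CD4+Foxp3- subsets, and B cell markers prevailed in CD45+CD4- cells. EGFP was at least 37.2 CPM in every spleen and graft Treg library, but its lowest DLN library had 1.64 CPM, under the highest CD45+CD4- library at 3.57 CPM. Il7r, which encodes CD127, was 1082 to 1236 CPM in SP/CD127hi and 269.5 to 359.7 CPM in SP/CD127-/lo Tregs. In the DLN, the range of 476 to 678 CPM in CD127hi lay within that of 265 to 784 CPM in CD127-/lo Tregs, so that the transcript did not separate these gates there. By the study's methods each library was a pool of several mice, but the naive mice numbered only 3 for each tissue, and which mice went into which library is not given in the sources used here. The p-values therefore measure the spread between these libraries, which may be technical in part.

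The promoters of 3 members are shown because Ctla4 and Tigit had their highest levels in Tregs and Btla its lowest. The sequences are the 250 bases before the RefSeq transcription start on GRCm38.p6, 5′ to 3′ on the strand of the gene, and capitals mark GGAAA or its reverse complement TTTCC, the core of NFAT sites.
Ctla4, chr1:60908775-60909024, plus strand: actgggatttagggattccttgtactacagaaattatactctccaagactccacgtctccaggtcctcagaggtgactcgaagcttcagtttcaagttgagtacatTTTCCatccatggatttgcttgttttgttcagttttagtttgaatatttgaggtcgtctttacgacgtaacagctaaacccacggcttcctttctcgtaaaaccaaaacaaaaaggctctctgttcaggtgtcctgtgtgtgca
Tigit, chr16:43664185-43664434, minus strand: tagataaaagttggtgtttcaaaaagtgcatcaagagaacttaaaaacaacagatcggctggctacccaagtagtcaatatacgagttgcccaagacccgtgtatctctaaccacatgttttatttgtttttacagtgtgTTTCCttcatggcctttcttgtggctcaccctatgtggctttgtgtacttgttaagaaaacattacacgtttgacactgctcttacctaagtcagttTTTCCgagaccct
Btla, chr16:45224087-45224336, plus strand: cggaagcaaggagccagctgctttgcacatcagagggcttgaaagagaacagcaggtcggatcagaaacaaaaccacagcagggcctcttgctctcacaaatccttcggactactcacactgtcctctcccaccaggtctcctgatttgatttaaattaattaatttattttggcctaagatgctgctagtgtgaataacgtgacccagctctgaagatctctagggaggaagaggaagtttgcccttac
The Ctla4 window lies in an intron of a longer annotated transcript, the Tigit window overlapped no exon of its gene, and the last 22 bases of the Btla window lie in an annotated first exon. GGAAA on either strand stood 144 bases before the Ctla4 start and 110 and 13 bases before the Tigit start, and it was not in the Btla window. The 7 members with an entry had 8 windows, as Cd160 had 2, and 5 of the 8 held it, as did 55.6% of 32851 windows of the same length. Neither the forkhead core GTAAACA nor the AP-1 site TGACTCA was found on either strand in a window of a member, and 3.17% and 4.46% of all windows held them. These matches describe the letters only. Lag3 had no entry.

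Ctla4 (ENSMUSG00000026011, chromosome 1, 60887000 to 60915832, plus strand, GRCm38) was the member that separated Tregs from all other cells. It had 641 CPM as the median of the 21 Treg libraries, with 328 as the lowest and 1115 as the highest, and no library of the 12 Foxp3- libraries passed 137 CPM. In the spleen of naive mice, SP/naive Tregs had 499, 348 and 599 CPM. SP/CD127-/lo Tregs had 1115, 846 and 937 CPM, all above the SP/naive libraries. SP/CD127hi Tregs had 805, 503 and 565 CPM, below the SP/CD127-/lo libraries and overlapping those of SP/naive Tregs. Graft Tregs had 935, 486 and 704 CPM, a range that covered those of SP/CD127hi. In the DLN, naive Tregs had 641, 753 and 373 CPM, and CD127-/lo Tregs had 767, 702 and 364 CPM. DLN/CD127hi Tregs had 353, 328 and 970.5 CPM, the widest spread of any Treg subset. The Foxp3- cells formed 2 lower levels. CD4+ T cells had 39.0, 45.6 and 137 CPM in naive mice and 96.9, 98.7 and 93.7 CPM in tolerant mice. CD45+CD4- cells had 0.611, 21.5 and 6.76 CPM in naive mice and 17.4, 23.1 and 0 CPM in tolerant mice. In the order of the 11 means, from 966 CPM in SP/CD127-/lo Tregs down to 9.63 CPM in SP/naive CD45+CD4- cells, neighbours failed to overlap only at these 2 steps.

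Ctla4 rose in each of the 7 comparisons of a spleen or graft Treg subset with CD4+Foxp3- T cells, and it was the only member called in them by edgeR's quasi-likelihood test. Between SP/naive Tregs and SP/naive CD4+ T cells, the means were 482 ± 126 and 73.9 ± 54.8 CPM (SD, n = 3), a 6.52-fold difference (log2 fold change 2.71 ± 0.51 SE, adjusted p = 0.000286). In that comparison, 0.264% of all genes tested were called in either direction. The fold was highest for SP/CD127-/lo Tregs, at 13.1 over naive CD4+ T cells (log2 fold change 3.71 ± 0.53 SE, adjusted p = 6.13e-08) and 10.02 over tolerant CD4+ T cells (adjusted p = 2.23e-06), where 0.469% and 0.284% of all genes were called. SP/CD127hi Tregs had 8.44 times the level of naive CD4+ T cells (adjusted p = 1.69e-05) and 6.47 times that of tolerant CD4+ T cells (adjusted p = 0.000355), beside 0.422% and 0.324% of all genes. Graft Tregs had 9.58 times the level of naive CD4+ T cells (adjusted p = 2.39e-06) and 7.35 times that of tolerant CD4+ T cells (adjusted p = 5.08e-05), beside 0.619% and 0.402%. These comparisons share their CD4+ libraries and are not independent. In bulk RNA, fewer cells of a type and less RNA per cell cannot be told apart. Leaving out the naive CD4+ library numbered 3, which had the highest Ctla4 of its subset, gave log2 fold changes over naive CD4+ T cells between 3.51 and 4.51. The likelihood ratio test that the methods name ended the calls for SP/naive Tregs over naive CD4+ T cells (adjusted p = 0.1003) and for SP/CD127hi Tregs over tolerant CD4+ T cells (adjusted p = 0.101). A stricter filter, 10 or more counts in 3 or more libraries, ended 4 of the 7 calls (adjusted p between 0.0556 and 0.190), with log2 fold changes between 2.66 and 3.01. Counts adjusted by ComBat-Seq for the sequencer ended all 7, with log2 fold changes between 1.69 and 2.55 and adjusted p between 0.139 and 0.567. The MiSeq batch was the DLN Tregs and held no Foxp3- cells, so that it cannot be told apart from tissue.

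**Figure D1:**
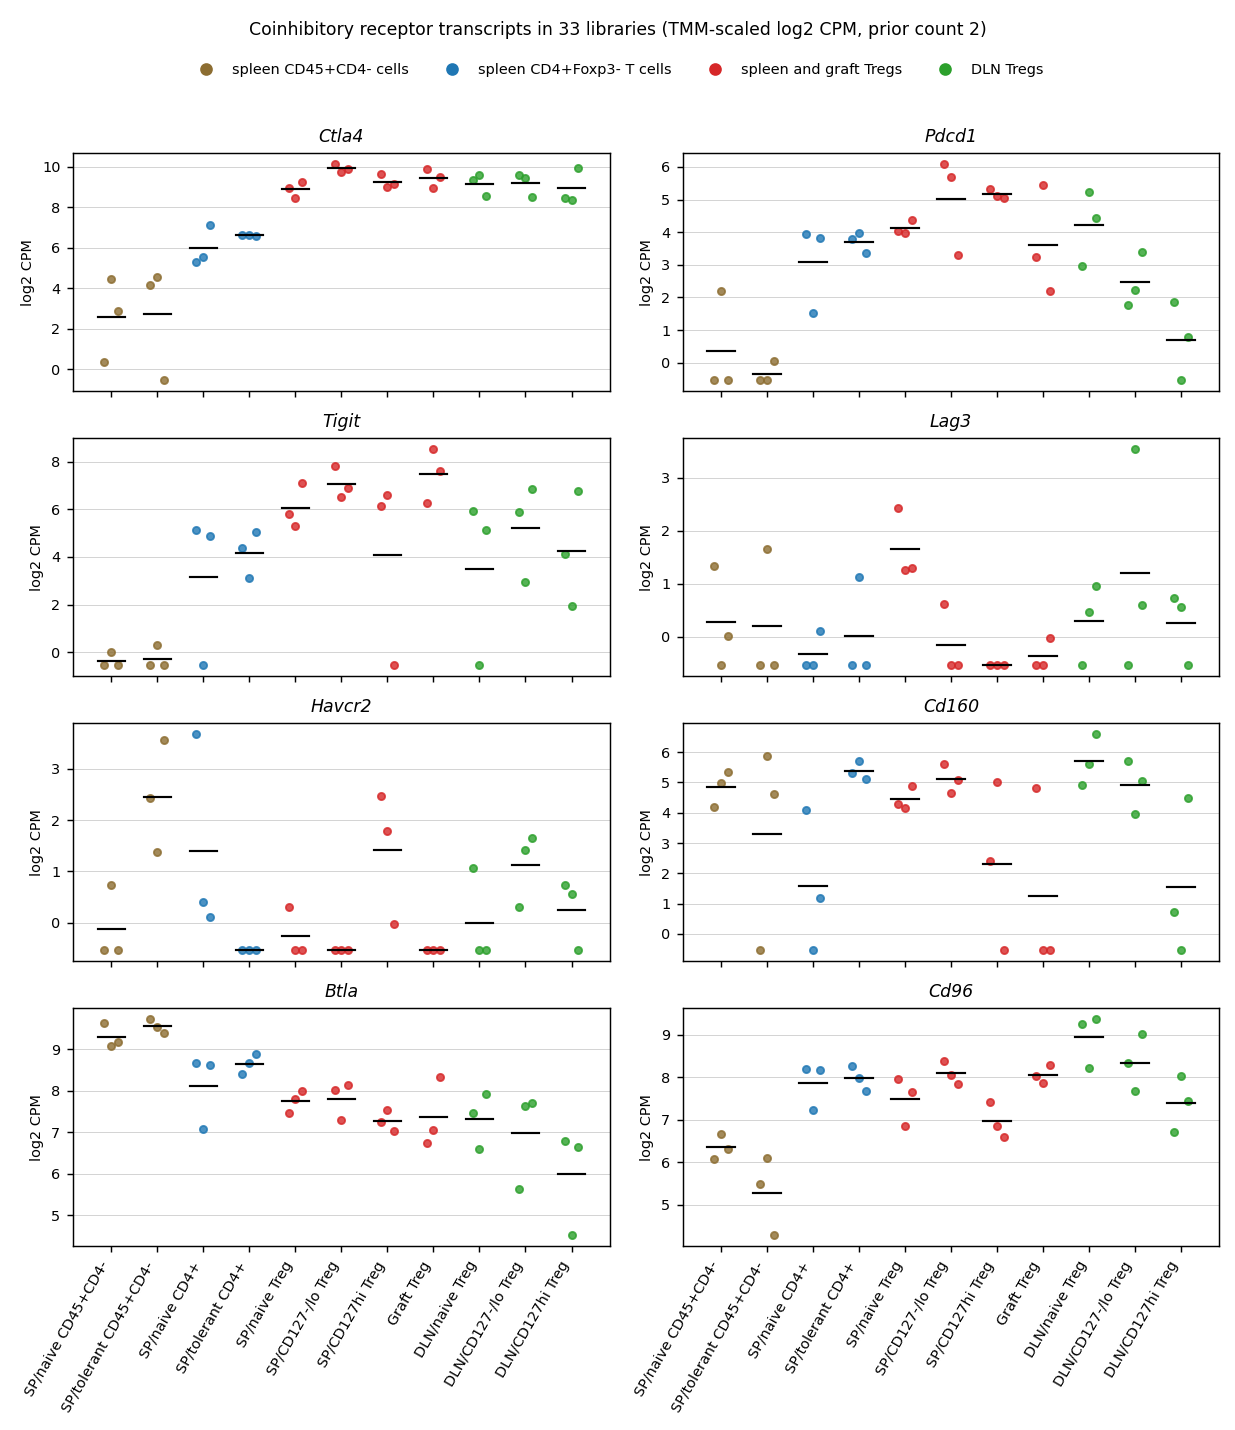
Each panel plots 1 gene, with the TMM-scaled log2 CPM of each library (points, 3 per subset, prior count 2) and the mean of the subset (line) over the 11 subsets on the x axis. Ctla4 sits in 3 steps, Btla runs the opposite way between CD45+CD4- cells, CD4+ T cells and Tregs, and Lag3 and Havcr2 stay near the limit of detection.

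Tigit (ENSMUSG00000071552, chromosome 16, 43648867 to 43664146, minus strand), a receptor of T and NK cells for the poliovirus receptor, was highest in graft Tregs. These had 76.6, 368 and 195 CPM. SP/CD127-/lo Tregs had 222, 90.3 and 119 CPM, and SP/naive Tregs had 55.1, 38.6 and 135 CPM. The subsets overlapped one another. SP/CD127hi Tregs had 69.8 and 97.02 CPM in 2 libraries and no count in the third, a library in which Ctla4 had 565 CPM. In the DLN, naive Tregs had 60.4, 0 and 34.1 CPM, CD127-/lo Tregs had 58.9, 6.97 and 114 CPM, and CD127hi Tregs had 16.5, 3.15 and 108 CPM. Within each DLN subset the lowest library was far below the highest. CD4+ T cells had 34.1, 0 and 29.0 CPM in naive mice and 19.8, 7.97 and 32.2 CPM in tolerant mice. The 6 CD45+CD4- libraries held 3 counts together. Tigit neighbours in the order of means failed to overlap only between the CD4+ and the CD45+CD4- cells of tolerant mice.

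All 3 graft and all 3 SP/CD127-/lo libraries had more Tigit than every CD4+ library, but no comparison of Tigit between Tregs and CD4+ T cells was called in the quasi-likelihood test. Graft Tregs had 10.1 times the mean of naive CD4+ T cells (log2 fold change 3.34 ± 1.05 SE, adjusted p = 0.143) and 10.6 times that of tolerant CD4+ T cells (3.41 ± 1.05 SE, adjusted p = 0.149). SP/CD127-/lo Tregs had 6.84 and 7.20 times these means (adjusted p = 0.330 and 0.353). With the dispersion of edgeR version 4, an alternative chosen after seeing the data, all 4 were called (adjusted p between 0.000380 and 0.0153). When the model held the compared libraries alone, the 2 over tolerant CD4+ T cells were called (adjusted p = 0.0377 for graft and 0.00180 for SP/CD127-/lo Tregs). The graft libraries also held transcripts of kidney epithelium, whose 4 markers summed to 116, 889 and 15.8 CPM against at most 17.9 CPM in any other library. Kap made up nearly all of this sum, and Slc34a1, Lrp2 and Umod had means of 0.481 to 1.04 CPM. The library with most Tigit was the one with most of these transcripts, and their part in the result was not tested.

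Pdcd1 (ENSMUSG00000026285, chromosome 1, 94038305 to 94052553, minus strand), the receptor PD-1 of activated T cells, was low in every subset. SP/CD127-/lo Tregs had 67.5, 51.6 and 9.09 CPM. SP/CD127hi Tregs had 39.7, 33.7 and 32.1 CPM, all above the 15.7, 14.9 and 19.95 CPM of SP/naive Tregs. Graft Tregs had 8.67, 43.1 and 3.87 CPM. In the DLN, naive Tregs had the highest mean, with 7.10, 37.1 and 21.1 CPM in naive Tregs, 2.73, 3.98 and 9.81 CPM in CD127-/lo Tregs and 2.92, 0 and 1.04 CPM in CD127hi Tregs. CD4+ T cells had 14.8, 2.22 and 13.3 CPM in naive mice and 13.2, 15.2 and 9.53 CPM in tolerant mice. CD45+CD4- cells had 0, 3.91 and 0 CPM in naive mice, and 1 count in tolerant mice. No neighbours in the order of means failed to overlap.

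Cd96 (ENSMUSG00000022657, chromosome 16, 46035657 to 46120251, minus strand), which shares its ligand with TIGIT, was spread over all T cells. DLN/naive Tregs had the highest mean, with 608, 295 and 659 CPM. DLN/CD127-/lo Tregs had 319, 204 and 518 CPM, and DLN/CD127hi Tregs had 104, 261 and 173 CPM, all below the DLN/naive libraries. In the spleen, CD127-/lo Tregs had 330.3, 266 and 229.5 CPM, above the 170.03, 115 and 96.1 CPM of CD127hi Tregs. Graft Tregs had 258, 232 and 309.5 CPM and SP/naive Tregs had 247, 114 and 199.5 CPM. The CD4+ T cells lay within the range of the Treg libraries, with 289, 148 and 288 CPM in naive mice and 304, 251 and 205 CPM in tolerant mice. CD45+CD4- cells were lowest, with 66.3, 101 and 78.2 CPM in naive mice and 44.2, 67.3 and 18.7 CPM in tolerant mice. Neighbours overlapped at each of the 10 steps of the order.

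Btla (ENSMUSG00000052013, chromosome 16, 45224315 to 45257670, plus strand), a receptor for HVEM, ran against Ctla4 between CD45+CD4- cells, CD4+ T cells and Tregs. Among the Treg subsets it did not, as SP/CD127-/lo Tregs had the highest mean of both, 231.5 CPM of Btla and 966 CPM of Ctla4. CD45+CD4- cells had 796, 542 and 577 CPM in naive mice and 849.99, 741 and 676 CPM in tolerant mice, above every other library. CD4+ T cells had 405, 133 and 396 CPM in naive mice and 339, 408 and 473 CPM in tolerant mice. The Treg libraries lay between 22.1 and 323 CPM, with a median of 176. SP/CD127-/lo Tregs had 257, 156 and 281 CPM, and SP/naive Tregs had 176, 222 and 253 CPM. SP/CD127hi Tregs had 151, 186 and 129.7 CPM and graft Tregs had 106, 133 and 323 CPM. DLN/CD127hi Tregs had the lowest mean. DLN Tregs had 176, 96.7 and 242 CPM in naive, 48.5, 199 and 209 CPM in CD127-/lo and 109.99, 22.1 and 99.5 CPM in CD127hi Tregs. In tolerant mice, SP/CD127hi Tregs had 155.6 ± 28.3 CPM and CD4+ T cells 407 ± 67.4 CPM (SD, n = 3), groups that did not overlap (log2 fold change -1.39 ± 0.49 SE, adjusted p = 0.287). When the model held these libraries alone, the difference was called (adjusted p = 0.0182).

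**Figure D2:**
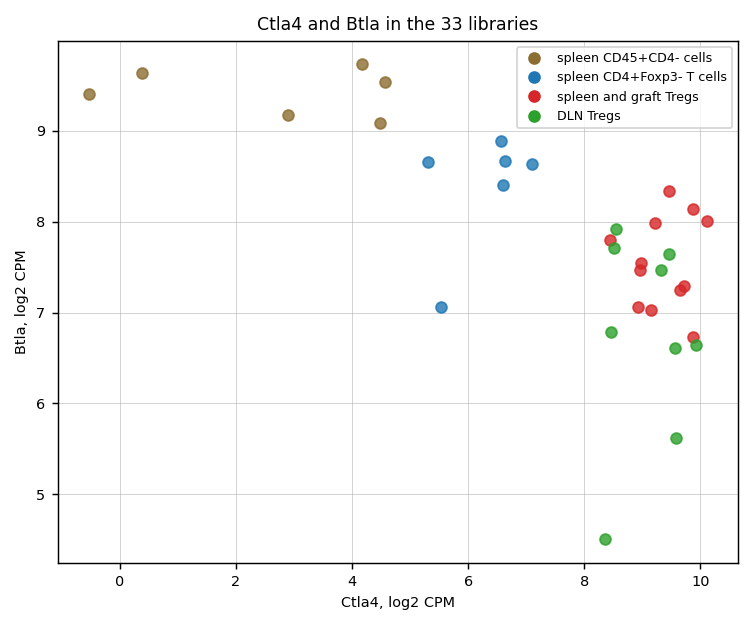
Each point is 1 of the 33 libraries, with the log2 CPM of Ctla4 on the x axis and that of Btla on the y axis, coloured by cell class. CD45+CD4- libraries lie at the top left, CD4+Foxp3- T cells in the middle and Tregs at the lower right, where Btla has at most 323 CPM.

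Cd160 (ENSMUSG00000038304, chromosome 3, 96798763 to 96829351, minus strand), a second receptor for HVEM found on NK and cytotoxic T cells, varied between libraries of the same subset as much as between subsets. In SP/CD127hi Tregs it had 4.67, 31.5 and 0 CPM and graft Tregs had 27.4, 0 and 0 CPM. In contrast, the 3 libraries of SP/naive Tregs were close, with 18.7, 17.3 and 28.8 CPM, as were those of SP/CD127-/lo Tregs, with 48.3, 24.7 and 33.1 CPM. DLN/naive Tregs had 29.8, 48.3 and 96.1 CPM, DLN/CD127-/lo Tregs had 51.2, 14.9 and 32.7 CPM, and DLN/CD127hi Tregs had 0.973, 0 and 21.8 CPM. CD4+ T cells had 16.4, 0 and 1.57 CPM in naive mice, and the 39.4, 51.1 and 33.7 CPM in tolerant mice did not overlap them. CD45+CD4- cells had 17.7, 30.98 and 39.6 CPM in naive mice and 0, 58.0 and 23.8 CPM in tolerant mice. Exons of Cd160 overlap those of Pdzk1 on the other strand, and without strand the reads of the pair cannot be told apart. The column over both strands held 2398 counts of Cd160 and the strand columns together 2401.

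Lag3 (ENSMUSG00000030124, chromosome 6, 124904361 to 124911705, minus strand), a receptor for MHC class II, was near the limit of detection. It had 73 counts in all 33 libraries, was counted in 16 of them and exceeded 3 counts in 7. SP/naive Tregs were the only subset with more than 3 counts in each library, at 4.68, 1.69 and 1.77 CPM, while the SP/CD127hi libraries had none. The highest mean, 3.92 CPM, was that of DLN/CD127-/lo Tregs, from 0, 11 and 1 counts. Graft, SP/CD127-/lo and SP/CD127hi Tregs all lay below the SP/naive libraries. SP/naive Tregs had 29 counts and graft Tregs 1, a ratio of 29.4 after scaling to library size, with a 95% exact counting interval from 4.87 to 1201 (log2 fold change of graft over SP/naive Tregs -4.31 ± 2.12 SE, adjusted p = 0.600). SP/naive Tregs had at least 3.36-fold more than SP/CD127hi Tregs with the latter set at 3 counts in each library (adjusted p = 0.657). Neither difference was called.

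Havcr2 (ENSMUSG00000020399, chromosome 11, 46454935 to 46481255, plus strand), which encodes TIM-3 of exhausted T cells and of macrophages, had 145 counts in 17 of the 33 libraries. No count was found in tolerant CD4+ T cells, SP/CD127-/lo Tregs or graft Tregs. Tolerant CD45+CD4- cells had 4.70, 1.92 and 11.2 CPM. One library of naive CD4+ T cells had 12.1 CPM, and the others had 2 counts and 1 count. In SP/CD127hi Tregs it had 4.88, 2.75 and 0.289 CPM, against no count in SP/CD127-/lo Tregs. Tolerant CD45+CD4- cells had at least 8.09-fold more than tolerant CD4+ T cells with the latter set at 3 counts in each library (adjusted p = 0.120), a difference that DESeq2 (adjusted p = 0.0297) and the model of the compared libraries (adjusted p = 0.0451) called. The macrophage and dendritic cell markers summed to 401 to 1000.3 CPM in the former and 24.2 to 44.4 CPM in the latter, and their part was not tested.

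**Figure D3:**
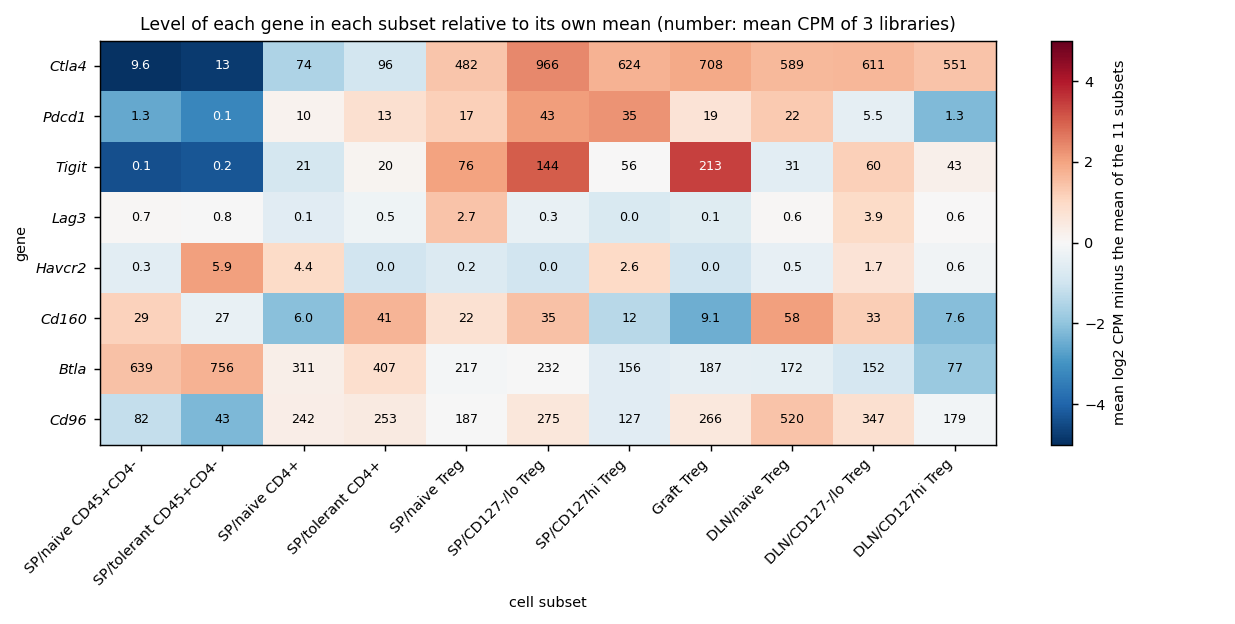
Rows are the 8 genes and columns the 11 subsets, with colour for the mean log2 CPM of the 3 libraries minus the mean of that gene over all subsets, and the mean CPM printed in each cell. Colours compare subsets within a gene only. Between CD45+CD4- cells, CD4+ T cells and Tregs, Ctla4 and Btla run in opposite directions, with 966 CPM of Ctla4 in SP/CD127-/lo Tregs and 756 CPM of Btla in tolerant CD45+CD4- cells.

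Per kb of exon, on which genes can be compared with each other, Ctla4 made up 41.5% to 60.4% of the summed CPM of the 8 genes in every Treg subset. In SP/naive Tregs, it had 207 CPM per kb, followed by Cd96 with 85.6, Tigit with 83.1 and Btla with 63.8. Tigit was second in graft Tregs, at 31.9% of the sum and 231.7 CPM per kb, and also in SP/CD127-/lo and SP/CD127hi Tregs, at 19.5% and 13.3%. In DLN/naive Tregs, Cd96 made up 39.1% and nearly equalled Ctla4 at 41.5%. CD4+ T cells had Cd96 at 41.6% and Btla at 34.5% in naive mice and 36.1% and 37.3% in tolerant mice, with Ctla4 at 11.9% and 12.9%. In CD45+CD4- cells, Btla alone made up 77.7% and 85.2%. Pdcd1 did not pass 3.99% in any subset, Lag3 0.339% or Havcr2 0.835%. These shares are a description and were not tested.

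**Figure D4:**
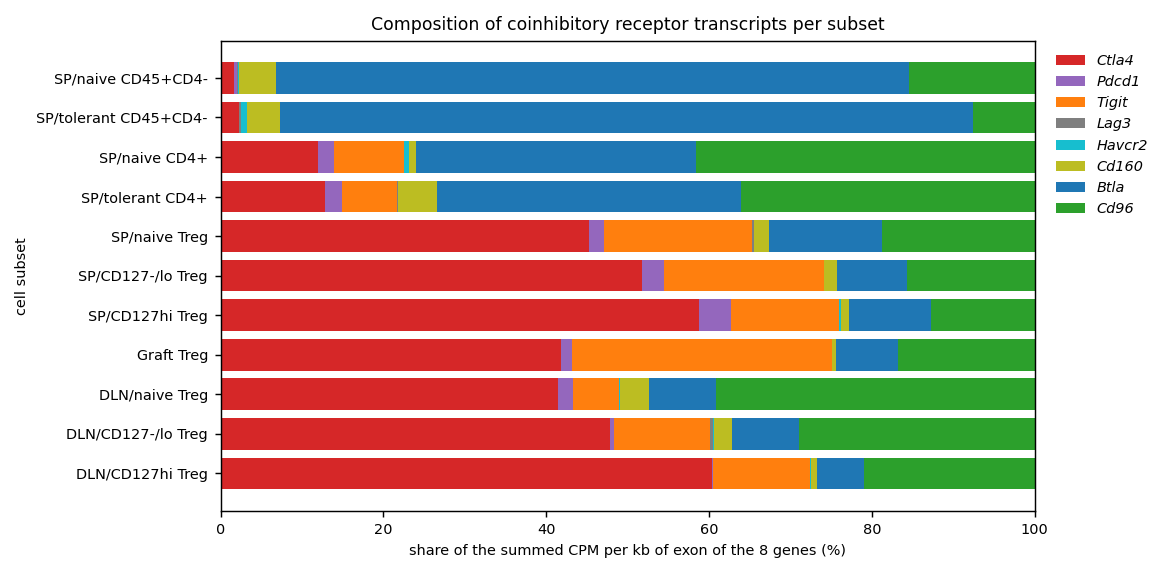
Bars give, for each subset, the share of each gene in the summed mean CPM per kb of exon of the 8 genes, in percent. Ctla4 is the longest segment in all 7 Treg subsets, from 41.5% to 60.4%, and Btla in both CD45+CD4- subsets, at 77.7% and 85.2%.

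The comparison of CD4+Foxp3- T cells with CD45+CD4- cells placed the members among the leukocytes of the spleen, and 5 of 16 tests were called, all higher in CD4+ T cells. In naive mice, Ctla4 was 7.68-fold higher (log2 fold change 2.94 ± 0.52 SE, adjusted p = 2.16e-05) and Tigit had 178 counts against 1 in CD45+CD4- cells, a ratio of 192 after scaling of the summed counts to library size (95% exact counting interval 34.02 to 7625, log2 fold change 7.14 ± 1.42 SE, adjusted p = 0.000266). In tolerant mice, Ctla4 was 7.14-fold higher (2.83 ± 0.52 SE, adjusted p = 2.92e-05), Cd96 was 5.84-fold higher (2.54 ± 0.55 SE, adjusted p = 0.000925) and Tigit had 244 counts against 2, a scaled ratio of 101 (interval 27.8 to 842, 6.41 ± 1.33 SE, adjusted p = 0.000462). In naive mice the Tigit libraries overlapped, with no count in 1 CD4+ library and 1 count in 1 CD45+CD4- library. The intervals cover counting error only. Of all genes tested, 1.04% and 1.53% were called in naive and in tolerant mice. Pdcd1 had 156 counts in tolerant CD4+ T cells against 1 in CD45+CD4- cells and missed the threshold (adjusted p = 0.0598). DESeq2 called it (adjusted p = 0.000643), as did the likelihood ratio test, the stricter filter and the model of the compared libraries. Cd96 in naive mice was 2.95-fold higher (adjusted p = 0.171) and was called by DESeq2 (adjusted p = 0.0323). The groups did not overlap for 4 members in naive mice and 6 in tolerant mice, beside 12.9% and 19.1% of all genes. Of these, Btla was lower in CD4+ T cells in both (log2 fold change in naive mice -1.04 ± 0.49 SE, adjusted p = 0.446).

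The calls against CD45+CD4- cells depended on some libraries and settings. Without replicate 3 of the tolerant CD45+CD4- cells, the adjusted p of Cd96 was 0.0644 (log2 fold change 2.14) and the log2 fold change of Ctla4 was 2.21, and without replicate 2 that of Ctla4 was 3.42 and that of Tigit 8.83. In naive mice, the log2 fold change of Ctla4 was 2.33 or 4.28 without replicate 1 or 2 of the CD45+CD4- cells and 2.13 without the CD4+ library numbered 3, and that of Tigit was 8.91 without replicate 2 of the CD45+CD4- cells. The stricter filter ended both Tigit calls (adjusted p = 0.0560 and 0.0535), with log2 fold changes of 7.11 and 6.39. The model of the compared libraries ended those of Ctla4 (log2 fold change 2.92, adjusted p = 0.105) and Tigit (7.12, adjusted p = 0.0712) in naive mice. ComBat-Seq ended both Ctla4 calls and that of Tigit in tolerant mice (log2 fold changes 2.13, 2.07 and 5.33, adjusted p = 0.193, 0.154 and 0.0568). The 5 T cell markers summed to 514 to 1923 CPM in the CD45+CD4- libraries and 4235 to 6540 CPM in the CD4+ libraries. The 5 B cell markers summed to 2393 to 5385 CPM in the former and 1.18 to 83.01 CPM in the latter, and the part of either in the results was not tested.

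**Figure D5:**
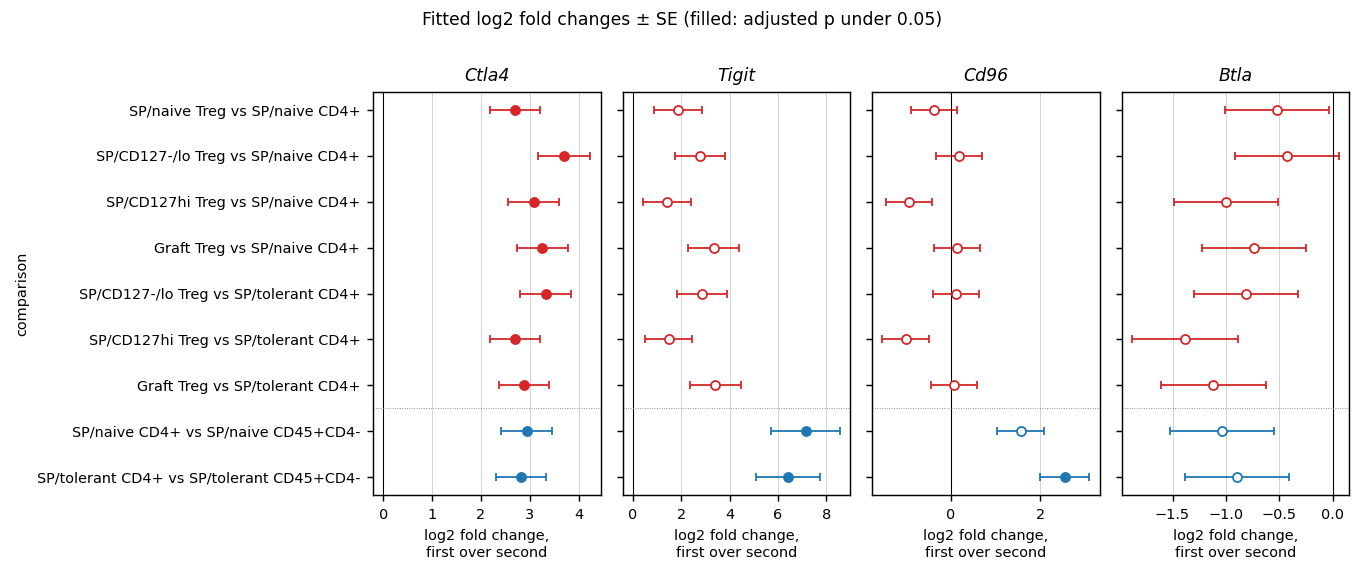
Fitted log2 fold changes with SE of Ctla4, Tigit, Cd96 and Btla (x axis, first subset over second) in 9 comparisons (y axis), of which 7 are Tregs against CD4+ T cells (red) and 2 are CD4+ T cells against CD45+CD4- cells (blue). Filled points had an adjusted p under 0.05, and these are all 9 of Ctla4, 2 of Tigit and 1 of Cd96, while each Btla value is below 0.

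Beyond the calls, some members separated Tregs from CD4+ T cells library by library. SP/naive Tregs lay wholly above naive CD4+ T cells for 5 members, namely Ctla4, Pdcd1, Tigit, Lag3 and Cd160, and no member lay wholly below. Of all genes, 5.35% lay wholly above and 4.7% wholly below, or 10% in either direction. The lowest Treg and highest CD4+ libraries were close for Pdcd1 (14.9 and 14.8 CPM) and Cd160 (17.3 and 16.4 CPM). Lag3 had 5 to 17 counts in these Treg libraries against at most 1. Against naive CD4+ T cells, SP/CD127-/lo Tregs did not overlap for 4 members, SP/CD127hi Tregs for 2 and graft Tregs for 3, beside 12%, 11.6% and 9.82% of all genes. For SP/CD127-/lo and graft Tregs these included Havcr2, which was lower in Tregs, with no count against 37, 2 and 1 counts. SP/CD127-/lo Tregs did not overlap tolerant CD4+ T cells for 3 members, beside 11.3%. SP/CD127hi Tregs did not overlap tolerant CD4+ T cells for 6 members, of which Ctla4, Pdcd1 and Havcr2 were higher and Cd160, Btla and Cd96 lower, beside 13.2% of all genes. For Havcr2 this rested on 1 count in the lowest SP/CD127hi library against none. Macrophage and dendritic cell markers summed to 122 to 256 CPM in these Tregs and 24.2 to 44.4 CPM in the T cells, and their part was not tested. Graft Tregs did not overlap tolerant CD4+ T cells for 4 members, higher for Ctla4 and Tigit and lower for Cd160 and Btla, beside 10% of all genes. The median log2 fold change of the 8 members was between 0.0363 and 1.52 over the 7 comparisons, and that of all genes between -0.255 and 0.

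No member was called by edgeR's quasi-likelihood test between Treg subsets or between tolerant and naive cells. Of all genes tested, 0.13%, 0.0829% and 0.103% were called in graft Tregs against SP/naive, SP/CD127-/lo and SP/CD127hi Tregs. SP/CD127hi against SP/CD127-/lo and SP/naive Tregs gave 0.0907% and 0.0197%, and SP/CD127-/lo against SP/naive Tregs gave 0.071%. Of the 48 tests between Treg subsets of spleen and graft, 7 had an unadjusted p under 0.05, and DESeq2 and the likelihood ratio test called 0. The largest of these among well counted members were Cd96, 2.10-fold higher in graft than in SP/CD127hi Tregs (log2 fold change 1.07 ± 0.52 SE, adjusted p = 0.530) and 2.17-fold lower in SP/CD127hi than in SP/CD127-/lo Tregs (-1.11 ± 0.52 SE, adjusted p = 0.684), and Ctla4, 2.00-fold higher in SP/CD127-/lo than in SP/naive Tregs (1.003 ± 0.48 SE, adjusted p = 0.859). In all 3 the groups did not overlap, and the summed CPM of the 5 T cell markers moved the same way. The sums were 6124 to 9636 CPM in SP/CD127-/lo, 4717 to 7566 CPM in graft, 2963 to 3563 CPM in SP/CD127hi and 2487 to 5292 CPM in SP/naive Tregs. Cd4, 1 of the 5, did not follow the sum. Its means were 139 CPM in SP/CD127-/lo, 106 CPM in graft, 137 CPM in SP/CD127hi and 184 CPM in SP/naive Tregs. Reads not assigned to a gene made up 37.01% to 46.1% in SP/CD127-/lo, 49.3% to 55.9% in graft, 50.4% to 55.9% in SP/CD127hi and 47.2% to 61.6% in SP/naive Tregs. The part of the markers or of these reads in the results was not tested. Graft Tregs did not overlap SP/CD127hi, SP/naive and SP/CD127-/lo Tregs for 2, 1 and 0 members, beside 8.52%, 8.15% and 7.2% of all genes. SP/CD127hi Tregs did not overlap SP/CD127-/lo and SP/naive Tregs for 3 and 2 members, beside 10.6% and 6.77%, and SP/CD127-/lo did not overlap SP/naive Tregs for 2, beside 8.97%. For Ctla4 in graft against SP/CD127hi Tregs, the 95% interval of the log2 fold change was -0.75 to 1.12.

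Of the 24 tests between Treg subsets of the DLN, 5 had an unadjusted p under 0.05, and 4 of these set DLN/CD127hi against DLN/naive Tregs, a comparison with 0.951% of all genes called. The comparisons of DLN/CD127hi with DLN/CD127-/lo and of the latter with DLN/naive Tregs had 0.418% and 0.355% called. Pdcd1 was 16.5-fold lower in DLN/CD127hi than in DLN/naive Tregs (log2 fold change -4.03 ± 1.72 SE, adjusted p = 0.336). In the same comparison, Cd160 was 7.66-fold lower (-2.95 ± 1.43 SE, adjusted p = 0.440), Cd96 was 2.90-fold lower (-1.54 ± 0.53 SE, adjusted p = 0.178) and Btla was 2.22-fold lower (-1.15 ± 0.50 SE, adjusted p = 0.341). The Pdcd1 value rested on 3, 0 and 1 counts in DLN/CD127hi Tregs, none above the limit of 3. Of the 22 counts of Cd160 there, 21 came from library 3, without which its log2 fold change was -6.93 (adjusted p = 0.0684). DESeq2 called Pdcd1 (adjusted p = 0.0256) and Cd96 (adjusted p = 0.0298). The groups of Pdcd1, Cd160 and Cd96 did not overlap, beside 7.68% of all genes, and no member did so in the other DLN comparisons, beside 5.37% and 6.34%. Macrophage and dendritic cell markers summed to 599.6 to 850.4 CPM in DLN/CD127hi and 2.80 to 436 CPM in DLN/naive Tregs. B cell markers summed to 140 to 423 CPM in the former and 3.10 to 38.3 CPM in the latter. Reads not assigned to a gene made up 50.9% to 63.9% in the former and 42.8% to 50.7% in the latter, and the part of these in the results was not tested. By the study's methods the naive mice of the DLN were female and the tolerant mice male, so that sex and tolerance cannot be told apart in comparisons with DLN/naive Tregs. The median log2 fold change of all genes was 0.40 in this comparison. In the test of whether the difference of CD127hi from CD127-/lo Tregs was the same in spleen and DLN, 0 of 8 members were called by edgeR, beside 0.118% of all genes, and DESeq2 called 0. Havcr2 alone had an unadjusted p under 0.05 (adjusted p = 0.478).

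Between tolerant and naive mice, 2 of 16 tests had an unadjusted p under 0.05, both in CD4+ T cells, and DESeq2 called 0. Of all genes, 0.107% were called in CD4+ T cells and 0.0355% in CD45+CD4- cells. The groups did not overlap for 2 members and 1 member, beside 9.63% and 6.79% of all genes. Cd160 was 6.91-fold higher in tolerant mice (log2 fold change 2.78 ± 1.40 SE, adjusted p = 0.692). Of its 54 counts in naive mice, 50 came from library 1, and without that library the log2 fold change was 5.68 (adjusted p = 0.369). Havcr2 was at least 5.97-fold higher in naive mice, with tolerant mice set at 3 counts in each library (adjusted p = 0.529), and 37 of its 40 counts in naive mice came from 1 library. Ctla4 differed by 1.30-fold in CD4+ T cells, with a 95% interval of the log2 fold change from -0.56 to 1.33.

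Other genes of the pathway were read from 5 lists. Of 8 other inhibitory receptors, 1 rose in Tregs against CD4+ T cells, and it did so in all 7 comparisons, namely Klrg1, a receptor for cadherins. Klrg1 had 153.5 ± 30.2 CPM in SP/CD127hi and 136 ± 91.3 CPM in graft Tregs (SD, n = 3) against 2 counts in 1 library of naive CD4+ T cells and none in tolerant CD4+ T cells. These levels were at least 209-fold and 185-fold more than in tolerant CD4+ T cells, with the latter set at 3 counts in each library (adjusted p = 2.09e-06 and 2.06e-06). The median log2 fold change of the list was between 0.67 and 1.11 over these comparisons. Against CD45+CD4- cells, Cd5 and Cd200r1 were 5.95-fold and 17.2-fold higher in tolerant CD4+ T cells (adjusted p = 0.00197 and 0.00379).

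Of 13 ligands, none was called between Tregs and CD4+ T cells, with 14 of 91 tests at an unadjusted p under 0.05. Mean Pdcd1lg2 (PD-L2) was 14.3 to 86.5 CPM in the Treg subsets and 9.80 to 17.5 CPM in the Foxp3- subsets. Mean Tnfrsf14, which encodes HVEM, was at most 11.8 CPM, and Nectin2 and Fgl1 had means under 1 CPM in every subset. Ceacam1, a ligand of TIM-3, had 25.1 ± 17.6 CPM in tolerant CD45+CD4- cells and no count in tolerant CD4+ T cells, at least 34.2-fold lower with the latter at 3 counts in each library (adjusted p = 0.0394).

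Of 4 costimulatory counterparts, none was called between Tregs and CD4+ T cells, with 5 of 28 tests at an unadjusted p under 0.05. Cd28, which competes with CTLA4 for its ligands, had means of 876 and 776 CPM in naive and tolerant CD4+ T cells and 262 to 629 CPM in Tregs. Icos had means of 496 to 1038 CPM in Tregs and 376 and 398 CPM in CD4+ T cells. Both fell in CD45+CD4- cells of tolerant against naive mice, Cd28 by 3.71-fold (adjusted p = 0.0198) and Icos by 3.88-fold (adjusted p = 0.0169). The T cell markers summed to 514 to 721 CPM in tolerant and 706 to 1923 CPM in naive mice, and the 2 CD8 T cell markers to 225 to 325 and 370 to 760 CPM. B cell markers summed to 4269 to 5385 CPM in tolerant and 2393 to 3760 CPM in naive mice. The part of these markers was not tested.

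Of 8 signalling and trafficking genes, none was called between Tregs and CD4+ T cells, with 1 of 56 tests at an unadjusted p under 0.05. Trat1, an adaptor that takes CTLA4 to the surface, was 8.99-fold and 14.97-fold higher in CD4+ T cells than in CD45+CD4- cells of naive and tolerant mice (adjusted p = 2.01e-05 and 6.60e-08). Ptpn6, the phosphatase SHP-1 recruited by several of these receptors, was 4.62-fold and 3.63-fold lower (adjusted p = 0.0131 and 0.04998). Of 6 transcription factors, Maf alone rose in Tregs, in 5 of 7 comparisons, with 1111 ± 177 CPM in graft Tregs against 253 ± 97.2 CPM in tolerant CD4+ T cells (SD, n = 3, log2 fold change 2.14 ± 0.44 SE, adjusted p = 0.00148). Maf also rose in DLN/CD127hi over DLN/naive Tregs, at 724 ± 165 and 249 ± 203 CPM (log2 fold change 1.54 ± 0.43 SE, adjusted p = 0.0482). The markers of macrophages and B cells that differed between these DLN groups, and the sex of the mice, apply here too. Maf fell in CD45+CD4- cells of tolerant against naive mice, at 8.50 ± 7.36 and 61.99 ± 57.9 CPM (log2 fold change -2.87 ± 0.46 SE, adjusted p = 1.86e-05), although the libraries overlapped. The T cell and B cell markers given for Cd28 and Icos apply to it too, and their part was not tested.

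The profiles of the members over the 11 subset means of log2 CPM were compared as a description, across points that share libraries, sequencers and treatments. Ctla4 was most like Tigit among the members (Pearson r = 0.896) and least like Btla (r = -0.842). Among 10035 genes with a mean of at least 5 CPM, the profiles closest to Ctla4 were those of Nrp1 (r = 0.984), Ikzf4 (r = 0.972) and Ikzf2 (r = 0.971), of which Ikzf2 also stood among the Treg markers. Among the closest to Btla were Lyst and Hmgn1 (r = 0.939), and closest to Tigit were Sdcbp2 (r = 0.949), Rab37 and Haus3. The first for Pdcd1 was Eva1b (r = 0.956), before Zdhhc15 and Rab5if, and for Cd96 Mrpl27 (r = 0.958), before Gstp3 and Ubash3a. For Cd160 these were D730003I15Rik (r = 0.933), Ubxn11 and Slc31a2. Lag3 and Havcr2 were below this level.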

How the data were processed

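RNA of sorted cells was amplified with SMART-Seq v4, made into Nextera XT libraries and sequenced as paired reads. The authors trimmed reads with Trim Galore, checked them with FastQC and aligned them with STAR to mm10 with the EGFP sequence added, at versions not given in the sources used here. The methods name HTSeq as counter, but the deposited files have the layout of STAR gene counts. The deposited values were raw read counts per gene, and the column over both strands was used. The rows for reads not assigned to a gene, 37.01% to 69.2% of a library, were left out. Genes were named from GENCODE vM21, with 43 of 31054 features left without a symbol.

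Libraries were grouped by the labels. Counts were scaled by TMM over all 33 libraries and tested with edgeR 4.0.16 (R 4.3.3), by the quasi-likelihood test with 1 mean per subset, over 25347 genes, with Benjamini-Hochberg adjustment and a threshold of 0.05. There were 20 comparisons and 1 interaction. Log2 CPM used a prior count of 2. All members were named, and other genes where they were called or ranked among the 3 closest profiles, of which 1 is not reported here. Levels of further list genes were chosen after their values were seen. The members and lists were chosen with earlier results of these data known. Alternatives were DESeq2 1.42.0, the likelihood ratio test, DESeq2's size factors, other filters, the compared libraries only, ComBat-Seq (sva 3.50.0), a replicate block and leaving out each library. The scripts were tested on simulated data.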

Additional observations from a re-analysis of the deposited data

Results flagged for a closer look

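In 5 pairs of contrasts, 40 pairs of values of the members were examined for groups whose libraries all moved in opposite directions, and 2 were found. The difference was not tested for either. Pdcd1 was 18.3 CPM higher in CD127hi than in naive Tregs of the spleen and differed by -20.5 CPM in the DLN, a difference of 38.8 CPM. The DLN libraries were all from the MiSeq, and the naive mice of the DLN were female and the others male. Havcr2 differed between tolerant and naive mice by -4.39 CPM in CD4+ T cells and by 5.61 CPM in CD45+CD4- cells, a difference of -10.002 CPM. Of the 40 counts of Havcr2 in naive CD4+ T cells, 37 came from 1 library. Macrophage and dendritic cell markers summed to 401 to 1000.3 CPM in tolerant and 188 to 535 CPM in naive CD45+CD4- cells, and their part was not tested.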

How the results depend on the processing

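Of 7 calls of members between Tregs and CD4+ T cells, 3 were left with at least 10 counts in at least 3 libraries and 0 with ComBat-Seq, and 11 were made with the dispersion of edgeR version 4, an alternative chosen after seeing the data. Between DLN Tregs, DESeq2 made 2 calls against 0. Of 5 calls between CD4+ T cells and CD45+CD4- cells, ComBat-Seq left 2 and DESeq2 made 8. Leaving out 1 library at a time gave 7 to 8, 0 to 0 and 4 to 5 calls in these families and 0 to 0 in the others, and 55 to 57 of the means of members at 10 CPM or more against 56. No member reversed its direction among the called values. Same-numbered libraries deviated together with a median correlation of -0.000912 (range -0.113 to 0.149, 4 of 165 pairs over 0.1), and 15 of 33 libraries correlated best with their own number, so the numbers were not taken as pairs. With the replicate block, 9 calls against 7 and 5 against 5 were made, and Tigit was called in graft Tregs over naive (log2 fold change 4.02, adjusted p = 0.0291) and tolerant CD4+ T cells (3.95, adjusted p = 0.0312). Lag3 and Havcr2 had 3 counts or fewer in 26 and 27 of the 33 libraries, and 3 counts were worth up to 3.55 CPM in the DLN.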
